A study of Mus musculus and Rattus norvegicus with 80 samples.

Results

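L1 loci listed as full-length and intact, 2788 of the 17019 annotated mouse L1 loci (16.4%), were followed across organs and ages. A locus was a member when the library tables listed its coordinates as full-length intact, each set of coordinates was taken once, and coordinates also listed as full-length non-intact were to be left out. None of the members was on both lists, and 23 were entered under 2 identifiers. The remaining loci were 13671 on the non-intact list alone and 560 on the list with an intact second open reading frame. All membership came from the annotation, so that no read count took part in the choice.

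The series measured polyadenylated cytoplasmic RNA of C57BL/6 mice by strand-specific paired-end sequencing, and the value of each locus is the number of uniquely mapped reads in the orientation of that locus. The 68 mouse libraries came from 12 males and 9 females, each library from an organ of a single animal, and the labels name no treatment and no genetic change. Testes and livers were taken from males of 1.9–3.6 mo, 7.6 mo, 12.8 mo and 22.3 mo, 3 at each age. Brains of 3 males and lungs of 2 males were taken at 7.6 mo, and brains and lungs of 3 males at 12.8 mo. Females gave ovaries, brains and lungs at 2.2–3.2 mo (3 mice), 8–8.7 mo (4 mice) and 16.5 mo (2 mice), and 6 of them gave uteri. The tables list L1 loci and no genes, so the organ labels were not checked against marker genes.

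L1 elements are retrotransposons, which move through an RNA copy that is reverse transcribed into the genome. An intact element carries an internal promoter and open reading frames for ORF1p, an RNA-binding chaperone, and ORF2p, an endonuclease and reverse transcriptase, whereas most genomic copies are mutated and cannot move by themselves. Male germ cells are known to transcribe L1, and DNA methylation and piRNAs restrain it there. Sequence of an L1 can also be carried in the transcript of a gene that runs through or past it, and intact copies are so alike that many of their reads fit several loci and are lost when only unique alignments are kept.

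The reads were counted in a window larger than the locus. Members were 4999 bases long at the median (range 4378 to 5179), and their windows held 700 bases before the start and 1000 bases after the end, 6699 bases at the median. The paper gives a greater length for a full-length mouse element, so the listed coordinates need not span all of it. How much of the margins is L1 sequence was not examined. In the 12 libraries of 12.8 mo the windows of this list reached 4204 bases upstream and 1195 bases downstream at the median, 10398 bases in all, while those of the non-intact list had a median of 5790 bases. Libraries of 12.8 mo are therefore described apart, and the first results are from the other 56 libraries. Levels are reads per 1000000 mapped reads (RPM). The mapped reads were taken from the study's tabulated FPKM values and not from the count tables, so every RPM value rests on them while shares of L1 reads do not. In units of 1000000 they ranged from 8.45 to 51.4, and reads on all L1 loci, in these 56 libraries, from 9567 to 109959.

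The windows of 48 members (1.72%) overlapped an annotated exon on the same strand, and these 48 members held 34.9% of all reads on the list. The exon stretches beside 3 of the most-read members are shown because reads on them were counted for the L1 locus. They are from GENCODE release M21 on GRCm38 (the build called mm10), written 5′ to 3′ on the strand of the locus, with the bases inside the counting window in capitals.
Adam5 exon in the window of UID-16508, chr8:24804358-24804544, minus strand: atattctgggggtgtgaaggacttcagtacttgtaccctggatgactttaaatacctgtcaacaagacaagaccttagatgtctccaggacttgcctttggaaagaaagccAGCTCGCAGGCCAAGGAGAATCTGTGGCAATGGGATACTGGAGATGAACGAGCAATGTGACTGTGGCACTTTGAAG
Gm9165 exon in the window of UID-17077, chr7:120513183-120513422, plus strand: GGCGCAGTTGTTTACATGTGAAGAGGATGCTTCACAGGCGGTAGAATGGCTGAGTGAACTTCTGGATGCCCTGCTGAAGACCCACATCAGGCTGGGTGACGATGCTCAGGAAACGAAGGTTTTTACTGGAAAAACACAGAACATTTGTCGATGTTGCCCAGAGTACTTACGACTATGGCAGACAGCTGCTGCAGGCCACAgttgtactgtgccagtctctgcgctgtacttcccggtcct
Gm15442 exon in the window of UID-15387, chr3:78488417-78488637, minus strand: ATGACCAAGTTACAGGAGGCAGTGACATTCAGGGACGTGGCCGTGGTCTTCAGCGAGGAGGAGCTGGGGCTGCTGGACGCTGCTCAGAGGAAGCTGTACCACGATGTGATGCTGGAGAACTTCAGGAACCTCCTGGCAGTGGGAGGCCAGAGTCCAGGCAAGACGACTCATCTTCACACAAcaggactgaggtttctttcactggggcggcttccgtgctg
The Adam5 exon, of a gene of the ADAM family of membrane proteins, is 187 bases long and all coding, and its last 76 bases lie in the window upstream of UID-16508. Gm9165 and Gm15442 are processed pseudogenes, of which 309 and 181 bases lie in the windows of UID-17077 and UID-15387. The stretch printed for Gm9165 is part of its exon of 699 bases, and that for Gm15442 is the first 221 of 1140 bases.

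Most members had few reads or none. No read was counted in any of the 56 libraries for 1426 members (51.1%), beside 38.7% of the non-intact loci and 42.7% of the loci with an intact second open reading frame. Another 625 members had between 1 and 3 reads in all 56 libraries together. More than 10 reads in at least 1 library were reached by 60 members (2.15%), compared with 1567 non-intact loci (11.5%) and 19 loci of the third list (3.39%), and 25 of the 60 passed 10 reads in 1 library alone. The list held 29757 reads, 1.40% of all L1 reads for 16.4% of the loci. Reads that were discarded because they mapped to several loci are not part of these values, so a count of 0 is not evidence of no RNA.

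The reads of the list were concentrated in a small number of loci. UID-16508 alone held 29.5% of them, UID-16508 and UID-15218 together 41.1%, the 10 most-read members 55.7% and the 100 most-read members 77.2%. No member had a read in all 56 libraries, and the widest detection was that of UID-17077, in 45 libraries. Of the members, 879 had reads in 1 organ only, 281 in 2 organs, 113 in 3, 50 in 4, 21 in 5 and 18 in all 6 organs. In testes and in livers 2 members made up 50% of the reads of the list, whereas 12 were needed in uteri, 17 in lungs, 21 in ovaries and 29 in brains.

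**Figure D1:**
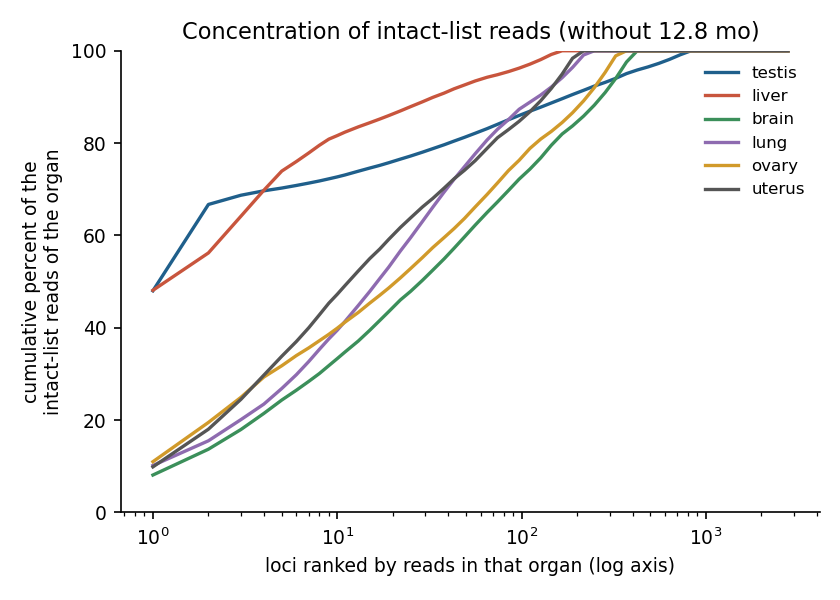
Cumulative percent of the reads on the intact list (vertical axis) against the rank of the loci by reads in that organ (horizontal axis, log scale), summed over the libraries of each organ other than 12.8 mo. The top 2 loci hold 66.7% of the reads in testes and 56.2% in livers, and between 13.7% and 19.5% in the other organs.

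Position in genes went with the chance of a read. According to GENCODE M21, 375 members (13.5%) lay in a gene on the same strand, 553 (19.8%) only in a gene on the opposite strand and 1860 (66.7%) outside genes. At least 1 read was found for 78.9% of the same-strand members, 47.6% of the opposite-strand members and 43.2% of those outside genes. More than 10 reads in a library were seen for 34 same-strand members (9.07%), 5 opposite-strand members (0.904%) and 21 members outside genes (1.13%). Same-strand members held 61.8% of the reads on the list. Of the non-intact loci, 34.4% of the same-strand, 12.1% of the opposite-strand and 8.91% of those outside genes were above 10 reads. Same-strand loci were thus highest on both lists. The order of the other classes differed above 10 reads, where the members were only 5 and 21. With at least 1 read it was the same on both lists, with 86.7%, 62.8% and 58.3% of the non-intact loci in these 3 classes. These shares are a description over loci and were not tested.

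Reads covered small parts of the windows. In the 225 combinations of a member and a library with more than 10 reads, the median covered fraction of the window was 4.84%, which is 324 bases, whereas it was 22.6% (1491 bases) in the 9839 such combinations of non-intact loci and 11.01% in the 94 of the third list. More than 50% of the window was covered in 2 of the 225 combinations, UID-14783 in the liver of mouse 1111 (54.5%) and UID-16228 in the ovary of mouse 1324 (51.8%), compared with 16.3% of the combinations of non-intact loci. Of the 60 members above 10 reads, 41 had a median coverage under 10% in the libraries concerned and 2 had a median over 25%. Those 2 were UID-14783 (39.8%) and UID-16771 (25.4%).

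Testes had the highest summed level of the list. The lowest, median and highest RPM were 40.8, 53.2 and 76.0 in 9 testes, 2.13, 12.0 and 14.05 in 9 livers, 3.79, 6.21 and 8.52 in 12 brains, and 3.82, 7.93 and 19.8 in 11 lungs. They were 2.95, 7.93 and 12.9 in 9 ovaries and 3.80, 8.39 and 13.6 in 6 uteri. Every testis lay above every library of the other organs, while the ranges of the other 5 organs overlapped. The number of members with at least 1 read was 191 at the median in testes (160 to 258), 76 in ovaries (41 to 113), 66 in brains (45 to 115), 56.5 in uteri (22 to 77), 46 in lungs (27 to 65) and 33 in livers (16 to 47). Over all their libraries testes had reads on 828 members, 496 of which had none in another organ. The median number of members above 10 reads was 7 in testes, 5 in livers and uteri, 3 in ovaries and 2 in brains and lungs.

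**Figure D2:**
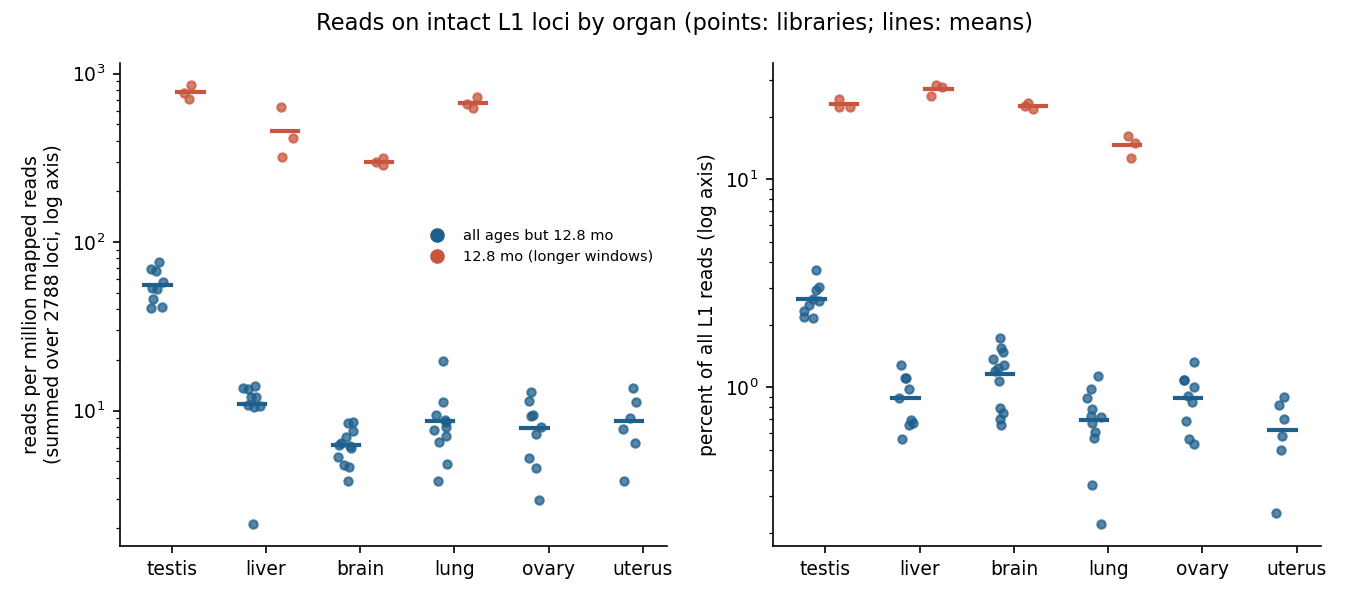
RPM summed over the 2788 intact loci (left) and the percent of all L1 reads that fall on them (right), both on log axes, for each library by organ. Points are libraries and lines are means. In the libraries other than 12.8 mo (blue) the 9 testes sit between 40.8 and 76.0 RPM, above all other organs, and the 12.8 mo libraries (red), counted in longer windows, sit between 288 and 857 RPM.

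The first comparison asked whether testes and livers of the same 9 males differed. Testes had 55.98 ± 12.6 RPM (SD, n = 9) and livers 11.001 ± 3.59 RPM (SD, n = 9), a difference of 2.46 on the log2 scale (exact permutation test, two-sided, p = 4.11e-05, the smallest that this design can give; 0.000452 after Benjamini-Hochberg adjustment over 22 tests). This test takes the organs of a mouse as separate samples, and within the 9 animals an exact sign-flip test gave p = 0.00391. The liver of mouse 1110 stood apart at 2.13 RPM, its mapped reads rest on 1 locus, and without it the difference was 2.19. Without UID-16508, the most-read member, the difference was 1.51 (exact permutation test, p = 4.11e-05). As a percent of all L1 reads the list took 2.67 ± 0.476 in testes and 0.883 ± 0.249 in livers (exact permutation test, p = 4.11e-05), a difference of 1.78 percentage points that was 0.480 without UID-16508 (exact permutation test, p = 0.000123). The 10 loci with most reads, 2 of which are members, were chosen over all mouse libraries, those with longer windows included. They need not be the 10 most-read loci of the organs compared, here or below. When they were taken out of the denominator only, the reads of the list came to 5.66 ± 1.13% in testes and 7.87 ± 2.17% in livers. The direction thus turned (difference of -2.21 percentage points, exact permutation test, p = 0.0183). Those 10 loci held 43.6 to 57.2% of the L1 reads of a testis and 85.4 to 91.5% of those of a liver. In bulk organs, fewer cells of a type and less RNA per cell cannot be told apart.

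At 7.6 mo testes also lay above brains and lungs of the same males. Brains had 6.08 ± 0.807 RPM (SD, n = 3) beside 70.6 ± 4.75 in testes (SD, n = 3), a log2 difference of 3.55. Lungs had 15.6 ± 6.01 RPM (SD, n = 2), a log2 difference of 2.24. Neither pair of groups overlapped, and both exact permutation tests gave p = 0.10, the smallest possible here when libraries are taken as separate samples. Within animals, exact sign-flip tests gave p = 0.25 for brains (3 pairs) and p = 0.50 for lungs (2 pairs). Without UID-16508 the log2 differences were 2.39 from brains and 1.10 from lungs. Shares of L1 reads were 3.20 ± 0.399% in testes, 0.706 ± 0.0455% in brains and 0.280 ± 0.0839% in lungs. The share difference from lungs was 2.92 percentage points, and with the 10 most-read loci out of the denominator it was 0.878 (exact permutation test, p = 0.70). Without UID-16508 the share differences were 0.722 points from brains and 1.15 from lungs.

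In females the summed levels of the organs overlapped. Ovaries had 7.88 ± 3.25 RPM (SD, n = 9), brains 6.29 ± 1.68 (SD, n = 9), lungs 7.17 ± 1.85 (SD, n = 9) and uteri 8.64 ± 3.47 (SD, n = 6). The log2 difference of ovaries was 0.24 from brains (exact permutation test, p = 0.370), 0.06 from lungs (p = 0.834, exact) and -0.15 from uteri (p = 0.670, exact). The share of L1 reads was lower in ovaries than in brains, 0.891 ± 0.262% against 1.30 ± 0.273% (exact permutation test, p = 0.00625, adjusted p = 0.0459, with overlapping ranges). This share difference was -0.433 percentage points with p = 0.206 (exact permutation test) when the 10 most-read loci were taken out of the denominator. The plus-strand table of the brain of mouse 1325 is not marked as cleared of PCR duplicates, and without that brain the share difference was -0.472 points (exact permutation test, p = 0.00132). Ovaries and uteri differed by 0.266 percentage points (exact permutation test, p = 0.0669), and within the 6 animals that gave both organs by 0.256 percentage points (exact sign-flip test with the animal as block, p = 0.03125, the smallest that 6 pairs can give). With the 10 most-read loci out of the denominator this difference turned to -0.272 points (exact permutation test, p = 0.519).

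The most-read member in testes was UID-16508, at chr8:24798757-24803733 on the minus strand, inside Adam5 on the same strand. It held 48.0% of the testis reads of the list, and 32.5 to 63.7% in single testes. Its reads were 841, 630 and 896 in the testes of mice 1071, 1110 and 1111, 1421, 1162 and 1240 in mice 1209, 1303 and 1305, and 958, 984 and 651 in mice 829, 830 and 831. All 9 testes thus had 630 reads or more, whereas no liver, ovary or uterus had a read, brains had 2 reads in all and lungs 8. The level in testes was 27.3 ± 9.73 RPM (SD, n = 9), at least 272-fold higher than in livers, where the floor is 3 reads per library averaged over the group. Against the brains of 7.6 mo, all at 0, the lower bound was 464-fold. In the testis of mouse 1303 the 1162 reads covered 79 bases of the window, beside the 76 bases of the Adam5 exon it holds. The other 8 testes had between 495 and 1594 covered bases. How far reads of Adam5 make up the count was not tested.

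UID-15218, at chr18:68475937-68480935 on the minus strand, lay outside genes, 42759 bases from the nearest. It had 351, 457 and 340 reads in the testes of mice 1071, 1110 and 1111, 423, 424 and 255 in mice 1209, 1303 and 1305, and 419, 347 and 403 in mice 829, 830 and 831. These are 10.3 ± 1.42 RPM (SD, n = 9), at least 103-fold above livers, and apart from 6 reads in a lung no other organ had any. The reads covered 264 to 285 bases in 8 testes and 538 in mouse 831, so that a small and similar number of bases carried the count in nearly every testis.

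The next testis members were far lower. UID-17077, at chr7:120507384-120512382 on the plus strand, lay in Abca16 and in the annotated span of the pseudogene Gm9165, with an exon of Gm9165 beside it. It had 27 to 49 reads in testes with a median of 44, or 1.09 ± 0.165 RPM (SD, n = 9). Its reads covered 257 to 324 bases beside 309 exon bases in the window, and its mean was 16.7 times that of livers. It was also read in brains, lungs, ovaries and uteri, with at most 24, 11, 8 and 12 reads in a library. UID-14945, inside Tmem132cos, had 5 to 38 reads in testes (median 17), UID-16324, inside 4930443O20Rik, 3 to 27 (median 10), UID-16515, inside Fam155a, 2 to 32 (median 8), and UID-17103, inside Gm45090, 4 to 18 (median 5). All 4 were read in each of the 9 testes.

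The liver was led by a locus inside a gene on the same strand. UID-14783, at chr1:139644828-139649826 on the minus strand inside Cfhr3, which encodes a plasma protein related to complement factor H, had 193, 48 and 230 reads in the livers of mice 1071, 1110 and 1111, 132, 121 and 121 in mice 1209, 1303 and 1305, and 206, 253 and 254 in mice 829, 830 and 831. The liver of mouse 1110 was the lowest, and all other livers had more than 120 reads. Its mean was 5.46 ± 1.77 RPM (SD, n = 9), it held 48.1% of the liver reads of the list, and reads covered 19.2 to 54.5% of the window. Testes held 2 reads, and brains, lungs, ovaries and uteri none.

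The other leading liver members also lay in genes on the same strand, and they varied between mice. UID-14967, inside Gc, which encodes the vitamin D binding protein, had 65, 46 and 50 reads in the livers of 22.3 mo and 10 to 24 in the 6 younger ones. UID-14751, inside Crp, the acute phase protein CRP, had 97 reads in mouse 1071, 45, 54 and 39 at 22.3 mo and 3 to 8 in the other 5 livers. UID-16457, inside Ces1c, which encodes a secreted carboxylesterase, had 63, 22 and 48 reads at 22.3 mo and 2 to 20 in the 6 younger livers. UID-15637, inside A1cf, a factor of apolipoprotein B mRNA editing, had 4 to 32 reads with a median of 11. For UID-14967 the livers of 22.3 mo were above all younger livers also in RPM (1.10 to 1.65 against 0.239 to 0.9503), whereas for UID-16457 the liver of mouse 830 (0.528 RPM) was below that of mouse 1111 (0.567 RPM). No test of age was planned for livers.

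**Figure D3:**
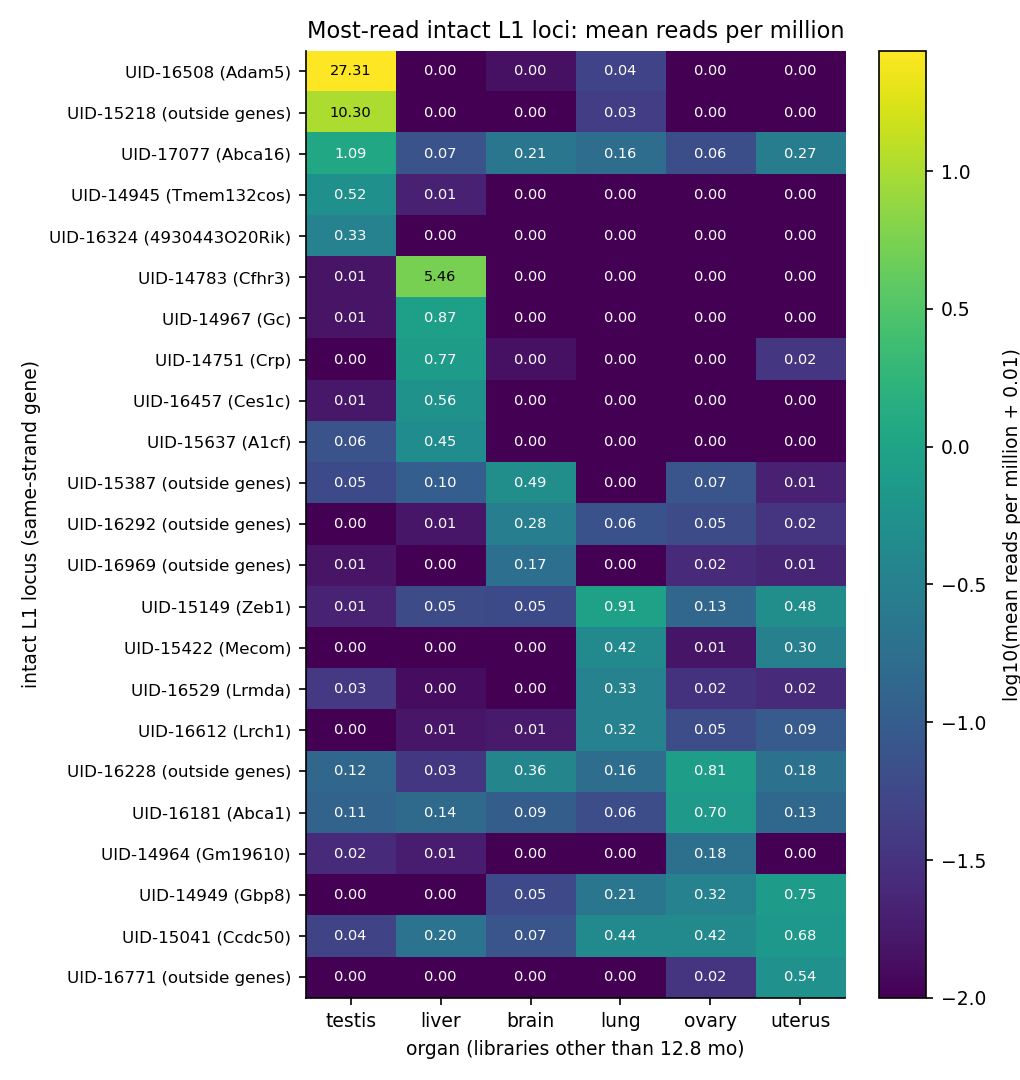
Mean RPM of the members with the highest means of each organ (rows, with the gene on the same strand in brackets) in 6 organs (columns), without the 12.8 mo libraries; color is log10 of the mean plus 0.01. UID-16508 and UID-15218 stand at 27.3 and 10.3 RPM in testes and UID-14783 at 5.46 in livers, and the next highest cell is UID-17077 in testes at 1.09.

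Member by member, 5 were deep enough to be tested between testes and livers, and all 5 passed the edgeR quasi-likelihood test with Benjamini-Hochberg adjustment at 0.05. The groups did not overlap for these 5. The share of all tested loci without overlap was not computed, so this cannot be read as a trait of the members. Higher in testes were 3, UID-16508 (log2 fold change 12.79 ± 0.43 SE, adjusted p = 3.84e-15), UID-15218 (adjusted p = 4.77e-15) and UID-17077 (3.95 ± 0.39 SE, adjusted p = 2.99e-10), where the background over all loci tested was 91.7%. Lower in testes were 2, beside a background of 4.56%. These were UID-14783 (edgeR, adjusted p = 4.02e-15), whose pooled rate in livers was 879 times that in testes (95% exact counting interval 243 to 7265), and UID-14967 (edgeR, adjusted p = 9.80e-13), with a ratio of 148 (41 to 1227). The 5 tested had a median log2 fold change of 3.95 beside 7.76 over all 351 loci tested. A locus was tested when 10 or more reads were counted in a number of libraries equal to the size of the smaller group, so members near 0 were not tested. A locus read in 1 organ alone could enter through that organ, so that the number of passes partly follows from the filter. The lower organ had no read for 2 of these 5. The same held for 3 of 4 called members against brains and 11 of 15 against lungs at 7.6 mo. At 12.8 mo it held for 43 of 77 against livers and 44 of 91 against brains.

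At 7.6 mo, 4 of the 5 members tested between testes and brains passed. UID-16508, UID-15218 and UID-17103 were higher in testes, beside a background of 82.9% of the loci tested, and no brain had a read on any of them. UID-15387 was lower in testes, where the background was 9.3%. This locus, at chr3:78489457-78494455 on the minus strand, 819 bases from the pseudogene Gm15442, had 45, 40 and 27 reads in the brains of mice 1209, 1303 and 1305 and 2, 0 and 2 in their testes, a log2 fold change of -4.53 ± 0.85 SE (edgeR, adjusted p = 1.44e-07). Its covered bases in 12 brains were 181 to 336, beside 181 exon bases of Gm15442 in the window. UID-17077 was the member that did not pass (log2 fold change 0.99 ± 0.59 SE, edgeR adjusted p = 0.0982), and DESeq2, which sets the scale from the counts of the L1 loci, put it lower in testes (-1.47, adjusted p = 0.00207). The median over the 5 members was 6.92, beside 7.42 over all loci. With a library left out, more members entered the test and the calls rose from 4. They were 7 of 9 tested without the testis of mouse 1303 and 11 of 11 without that of mouse 1305. Without the brain of mouse 1209, 1303 or 1305 they were 12 of 13, 12 of 14 and 11 of 13. Shares over all loci are not given for these runs, so the counts are not a result about the members.

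Between testes and lungs at 7.6 mo 16 members were tested. Higher in testes were 11, where the background was 87.8% of the loci tested, and lower were 4, where it was 5.35%. With the animal as a block, which leaves 2 pairs, 4 of the 15 remained, 2 in each direction. Without the testis of mouse 1209 7 of 9 tested passed, and without that of mouse 1303 9 of 11 passed. The share over all loci is not given for the block or for these 2 runs. The highest testis levels were again those of UID-16508 and UID-15218, for which the lung of mouse 1303 had 6 reads each and that of mouse 1209 none. The members lower in testes lay in genes on the same strand. UID-15149, inside Zeb1, a zinc finger transcription factor, had 64 and 26 reads in these lungs and 0 in 3 testes, and was at least 26.9-fold higher in lungs. UID-15422, inside Mecom, a gene of a zinc finger transcription factor, had 33 and 14 reads, UID-14686, inside Pard3b, a gene of a cell polarity protein, had 18 and 18, and UID-15041, inside Ccdc50, had 36 and 12. Median log2 fold changes were 6.01 over the members and 6.82 over all loci.

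In brains, lungs, ovaries and uteri no member dominated. The leading brain member, UID-15387, had 8.10% of the brain reads of the list, and 27 to 45 reads in 3 male brains but 6 to 17 in 9 female brains. In RPM, male brains were at 0.866 to 1.12 and female brains at 0.207 to 0.424 for this locus, without overlap. Sexes were not compared by a test, and the male and female mice also differed in age. UID-16228, outside genes, 9117 bases from Gtdc1, had 4 to 19 reads in brains and 6 to 72 in ovaries. UID-16292, outside genes, 4340 bases from Mkks, had 0 to 25 reads in brains and UID-16969 0 to 14. In 11 lungs UID-15149 had 4 to 64 reads with a median of 14, UID-15041 0 to 36, UID-15422 0 to 33, UID-16529, inside Lrmda, 1 to 23 and UID-16612, inside Lrch1, 0 to 26. The highest values of UID-15149, UID-15041, UID-15422, UID-16529 and UID-16612 among lungs were all in 1 library, that of mouse 1209, which also had the highest summed level of the lungs, 19.8 RPM.

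Ovaries and uteri shared members but not in the same order. UID-16228 had 72, 8, 50, 7, 33, 44, 11, 8 and 6 reads in ovaries of mice 1004, 1006, 1324, 1325, 1337, 1338, 1534, 1535 and 1540, and 12, 2, 9, 0, 2 and 0 in the uteri of mice 1004, 1006, 1324, 1325, 1338 and 1534. In reads, the ovaries of mice 1004, 1324, 1337 and 1338 were above all uteri. In RPM that of mouse 1535 (0.684) was too, since its library is small, beside 0.619 in the highest uterus, and the other 4 ovaries overlapped with uteri. Coverage reached 51.8% of the window in ovaries. UID-16181, inside Abca1, a cholesterol exporter, had 4 to 41 reads in ovaries (median 15) and 0 to 12 in uteri. Of 4 members tested, these 2 passed, both higher in ovaries, beside a background of 33.6%, with log2 fold changes of 2.66 ± 0.86 SE (edgeR, adjusted p = 0.0180) and 2.43 ± 0.84 SE (edgeR, adjusted p = 0.0260). With the animal as a block none of 2 members tested passed. UID-14949, at the genes Gbp8 and Gbp9 of interferon-induced GTPases, had 95 reads in the uterus of mouse 1006 and 2 to 18 in the other 5 uteri. UID-16771, outside genes, 13675 bases from Vmn1r39, a vomeronasal receptor gene, had 18, 18, 22, 2, 25 and 2 reads in the uteri of mice 1004, 1006, 1324, 1325, 1338 and 1534, and its coverage of 2.92 to 29.9% of the window was wider than that of the other uterine members at the median (19.6%). UID-14964, inside Gm19610, had 0 to 20 reads in ovaries.

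For ovaries against female brains and lungs 1 member each was deep enough. UID-16228 had 0.809 RPM in ovaries and 0.362 in brains, a log2 fold change of 1.07 ± 0.48 SE that missed the threshold (edgeR, adjusted p = 0.0589; p without adjustment 0.0362), so that 0 of 1 passed in edgeR and 1 in DESeq2, beside a background of 58.8% called. UID-15041 had 0.418 RPM in ovaries and 0.244 in lungs (edgeR, adjusted p = 0.244), and 0 of 1 passed in edgeR and in DESeq2, also without adjustment, beside 51.2%.

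The age comparisons asked whether the list changed between young, adult and old mice. The summed level in testes was 48.4 ± 8.87 RPM at 1.9–3.6 mo, 70.6 ± 4.75 at 7.6 mo and 48.9 ± 6.83 at 22.3 mo (SD, n = 3 each). The 3 testes of 7.6 mo were above those of either other age, the exact permutation test gave p = 0.10 in both cases, the smallest that 3 against 3 can give, and p = 0.90 between 1.9–3.6 and 22.3 mo. Without UID-16508 the log2 difference from 1.9–3.6 mo to 7.6 mo went from 0.56 to 0.21 (exact permutation test, p = 0.50) and that from 7.6 to 22.3 mo from -0.54 to -0.27 (exact permutation test, p = 0.40), so that the groups then overlapped. UID-16508 itself had 20.7 ± 6.45, 38.5 ± 3.92 and 22.7 ± 6.01 RPM, groups that did not overlap between 7.6 mo and the other ages. The locus did not pass in either comparison, with log2 fold changes of 0.90 ± 0.27 SE from 1.9–3.6 to 7.6 mo (edgeR, adjusted p = 0.311) and -0.76 ± 0.22 SE from 7.6 to 22.3 mo (edgeR, adjusted p = 0.130). UID-15218 had 9.83 ± 1.52, 10.9 ± 2.01 and 10.1 ± 0.881 RPM, within the spread between mice. UID-17103 had 0.181 ± 0.111, 0.428 ± 0.0458 and 0.121 ± 0.0151 RPM, again highest at 7.6 mo, and did not pass (edgeR, adjusted p = 0.735 and 0.229).

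**Figure D4:**
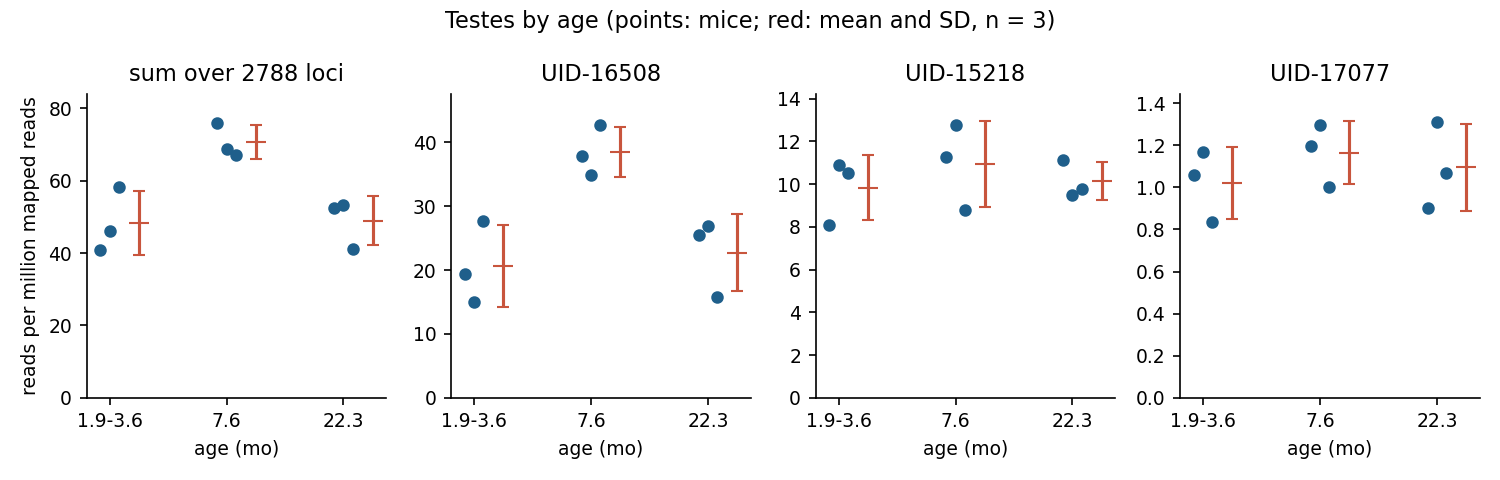
RPM in testes of 1.9–3.6, 7.6 and 22.3 mo for the sum over the list and for UID-16508, UID-15218 and UID-17077. Points are mice and red marks are the mean and SD (n = 3). The testes of 7.6 mo lie above the other ages for the sum (67.1 to 76.0 RPM) and for UID-16508 (35.0 to 42.7 RPM), while UID-15218 and UID-17077 overlap across ages.

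No member passed an age comparison in edgeR or in DESeq2. Of 12 members tested from 1.9–3.6 mo to 7.6 mo 0 were called, beside a background of 0%, and 1 had an unadjusted p under 0.05. Of 8 tested between 7.6 and 22.3 mo 0 were called, beside 0.262%, and 2 had an unadjusted p under 0.05. Of 6 tested between 1.9–3.6 and 22.3 mo 0 were called, beside 0%, and 0 had an unadjusted p under 0.05. Female brains of 16.5 mo had 8.46 ± 0.0911 RPM (SD, n = 2) beside 5.95 ± 1.95 at 2.2–3.2 mo (SD, n = 3; exact permutation test, p = 0.20), and of 4 members tested 0 were called, beside 0%, with 0 at an unadjusted p under 0.05. Ovaries had 10.4 ± 3.51 RPM at 16.5 mo (SD, n = 2) and 6.52 ± 4.36 at 2.2–3.2 mo (SD, n = 3; exact permutation test, p = 0.40), and of 5 members tested 0 were called, beside 4.81%, with 2 at an unadjusted p under 0.05. These 2 were UID-14949 (0.703 against 0.138 RPM; edgeR, adjusted p = 0.216) and UID-16050 (0.354 against 0.0323 RPM; edgeR, adjusted p = 0.181), and UID-16050 passed (adjusted p = 0.00950) when the ovary of mouse 1534 was left out.

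At 12.8 mo, where the windows of the list were longer, its values were of another size. The lowest, median and highest summed RPM were 705, 768 and 857 in testes, 320, 415 and 633 in livers, 288, 300.0 and 314 in brains and 626, 661 and 725 in lungs. The highest liver, that of mouse 900, rests on mapped reads given by 1 of 3 loci. For the lungs of mice 899, 900 and 901 the mapped reads were shared by 8 of 19, 9 of 22 and 8 of 22 loci. The list took 22.3 to 24.3% of the L1 reads in testes, 25.0 to 28.4% in livers, 21.9 to 23.2% in brains and 12.7 to 16.1% in lungs, against 1.40% over the other 56 libraries. Age and window length cannot be told apart between these and the other libraries. The longer windows of 197 members (7.07%) overlapped a same-strand exon, and these held 77.4% of the 12.8 mo reads of the list. For the 149 members with an exon in the longer window only, the level in testes was 1.95 ± 0.521 RPM at 7.6 mo and 343 ± 20.1 at 12.8 mo (SD, n = 3 each), and their part of the reads of the list was 2.81% and 43.7%. In livers their part was 16.9% and 86.5%, in brains 8.37% and 55.1%, and in lungs 28.0% and 84.0%. The 2591 members with no exon in either window were also higher at 12.8 mo, with 27.3 ± 6.31 and 212 ± 83.9 RPM in testes and 8.44 ± 0.0884 and 54.3 ± 14.7 in livers. The part of exon reads in these differences was not tested.

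**Figure D5:**
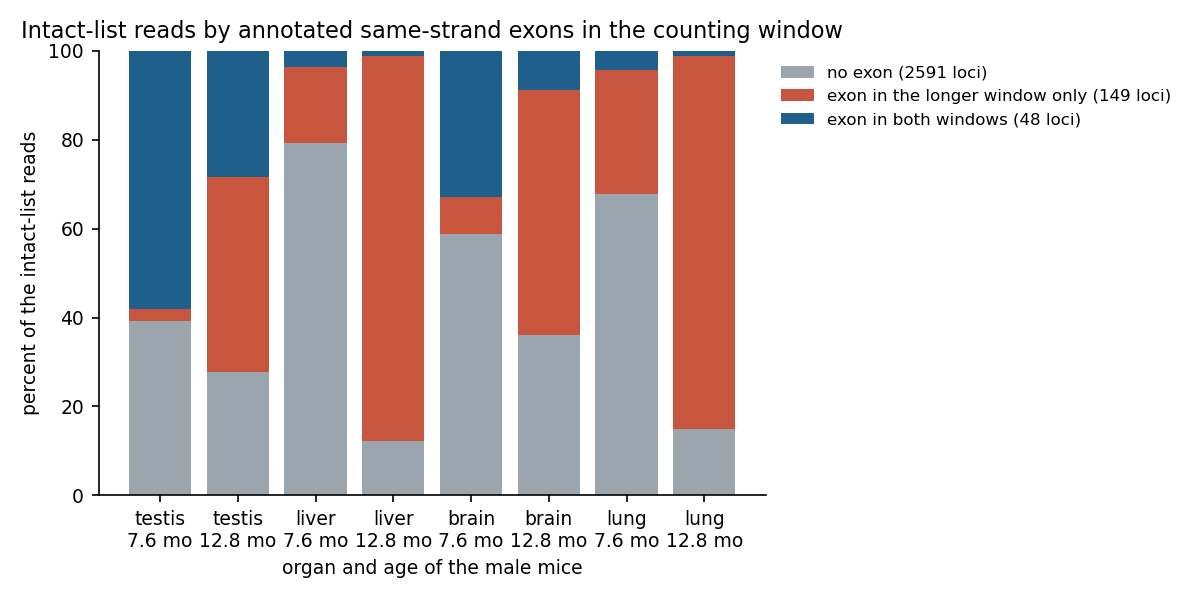
Percent of the intact-list reads (vertical axis) that fall on members with no same-strand exon in the window (gray, 2591 loci), with an exon in the longer 12.8 mo window only (red, 149 loci) or in both windows (blue, 48 loci), for male organs of 7.6 and 12.8 mo. The red part is between 2.81% and 28.0% at 7.6 mo and between 43.7% and 86.5% at 12.8 mo.

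The most-read loci at 12.8 mo were named after their values were seen. UID-15219, at chr18:63535327-63540283 on the minus strand, had no read in any of the 56 other libraries and 33396 at 12.8 mo, with 3320 to 3912 reads in livers, 4238 to 4526 in lungs, 1340 to 1746 in brains and 1274 to 1862 in testes. An exon of AC124512.1 lies in its longer window and not in the shorter one. UID-16266, with AA467197 and Mir147 in the longer window only, had 4439 to 5020 reads in testes of 12.8 mo, 0 to 6 in testes of the other ages and at most 94 in another organ of 12.8 mo. UID-15902, with an exon of Cybb, a subunit of the phagocyte NADPH oxidase, had 2504 to 3006 reads in lungs, 246 to 484 in livers and at most 36 in a brain or a testis. UID-15678, with an exon of the calpain inhibitor gene Cast, had 2435 to 2946 reads in lungs and 86 to 96 in testes. These loci were thus counted in the organs at very different levels, and the covered part of the window was at most 18.9% for UID-15902 and 7.53% for UID-15219.

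Within 12.8 mo, 87 members were tested between testes and livers and 77 passed. Higher in testes were 58, beside a background of 85.1%, and lower were 19, beside 7.23%, and the median log2 fold change was 6.44 over the members and 7.53 over all loci. The background includes the members. Its non-intact loci were counted in windows of 5790 bases at the median and the members in 10398, so the values are not like for like. More members were tested when a library was left out. Without the testis of mouse 900, 134 of 151 tested passed. Without the liver of mouse 899, 900 or 901, 131 of 164, 137 of 165 and 124 of 163 passed. These runs are given without the share over all loci. UID-15218 had 435, 418 and 531 reads in testes and none in livers, at least 112-fold higher (edgeR, adjusted p = 8.09e-13). UID-15610, outside genes, had 458, 180 and 523 reads in testes and none in livers, at least 91.3-fold higher (edgeR, adjusted p = 4.98e-12). UID-17289, inside Lrriq1, had an exon of Gm47164 in both windows and one of Lrriq1 in the longer window only. It had 0 to 4 reads in testes of the other ages, and at 12.8 mo 1636, 1584 and 2138 reads in testes and 2 in livers, a ratio of 2091 (95% exact counting interval 578 to 17268). UID-16508 had 2716, 2768 and 3455 reads in testes and 10 in livers. Lower in testes were UID-14967, with 1801, 988 and 931 reads in livers and 0 in testes, UID-16457, with 348, 650 and 622 beside 4, and UID-16123, beside the pseudogene Cyp4a30-ps, with 20, 48 and 84 beside 0. Gc, the host of UID-14967, and Ces1c, the host of UID-16457, have an exon in the longer windows of these loci and not in the shorter ones.

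Between testes and brains of 12.8 mo 91 of 126 members passed. Higher in testes were 55, beside a background of 62.1%, and lower were 36, beside 18.8%, with a median log2 fold change of 0.98 over the members and 4.83 over all loci. Without the testis of mouse 900, 152 of 204 tested passed, and without the brain of mouse 901, 140 of 199, again without the share over all loci. UID-14945 (284, 102 and 329 reads in testes), UID-16324 (174, 136 and 216) and UID-17103 (219, 55 and 199) had no read in brains. Among the members lower in testes, UID-17331, 3748 bases from Clvs2, had 178, 238 and 220 reads in brains and none in testes, at least 74.0-fold higher in brains. UID-16050, inside Arhgap6, had 74, 113 and 108 reads in brains, and UID-15880, inside Tenm1, a gene of a neuronal adhesion protein, had 43, 97 and 111, with none in testes for either. The exons of Clvs2, Arhgap6 and Tenm1 were in the longer windows only, and in 12 brains of the other ages UID-17331 had 0 to 8 reads, UID-16050 0 to 9 and UID-15880 none.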

How the data were processed

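Read counts per L1 locus, as the authors deposited them, came from pairs aligned with Bowtie to mm10 with unique alignments only, PCR duplicates removed and strands separated, and were counted in the orientation of each annotated locus with bedtools. The plus-strand table of the brain of mouse 1325 is the exception, as its name does not mark duplicate removal, so it may hold duplicates. The deposited fraction of the window covered by reads was used as a description. Mates are counted separately and curation in a browser was not applied here. Both sequencing platforms named in the labels are not assigned to samples. Members and lists were chosen with earlier results of these data known.

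Mapped reads per library did not come from the count tables. They were recovered from the FPKM that the authors tabulated for curated loci with the paper, as the depth shared (within 0.02%) by most loci. No other value of that table was used. For 5 libraries of 22.3 mo the column of another animal coincided, and joining by animal number was an alternative. In 5 libraries fewer than 60% of the loci coincided. These were the brain of mouse 1325 and, at 12.8 mo, the liver of mouse 900 and the lungs of mice 899, 900 and 901. The liver of mouse 1110 rests on 1 locus, and that of mouse 900 on 1 of 3 loci, so that no other locus backs its depth. Intervals and floors (3 reads) cover counting error only.

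Of all 17019 loci, those that passed the read filter of a comparison were fitted with the edgeR 4.0.16 quasi-likelihood test (R 4.3.3). Mapped reads served as library size, an age term was used where several ages entered, and Benjamini-Hochberg adjustment was at 0.05 over the loci fitted. Loci needed 10 or more reads in a number of libraries equal to the smaller group's size, and DESeq2 1.42.0 was an alternative. For single values, libraries were permuted in exact two-sided tests, and 22 of these were adjusted together. Organs of the same animal entered these tests and the main edgeR fits as separate samples. P-values measure the spread between libraries. The scripts were tested on simulated data with 200 changed loci. Tables were made with Python 3.11.15 and numpy 2.4.6.

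Members were named when among the 5 highest means of an organ, among up to 3 with the largest called fold changes in each direction without overlap, when read in all 56 libraries (none was), or as UID-15218. Others are said to be chosen after their values were seen. The labels give organs of 1 animal the same number, and deviations from group means correlated at -0.0192 to 0.278 for testis and liver, over 0.1 in 5 of 9 pairs. The planned description of locus sequence (base composition, reading frames, motifs) was not analysed here, since no genome was used.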

Additional observations from a re-analysis of the deposited data

Results flagged for a closer look

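In lungs of females of 8–8.7 mo, UID-16612, inside Lrch1, had 0.232 RPM in mouse 1325, far from the other 3 lungs, which had 0 to 0.0359 RPM. The 0.232 RPM are 6 reads. Such a gap was looked for in 27 groups, and chance marks about 1 in 20 groups.

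The 3 lungs of 12.8 mo males entered no comparison. Their summed levels on the intact list were 626, 661 and 725 RPM, above those of the 11 lungs of other ages (3.82 to 19.8 RPM). Their windows are longer, so that age and window length cannot be told apart. The mapped reads of these lungs were shared by fewer than 60% of the loci used to recover them.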

How the results depend on the processing

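The higher summed level in testes than in livers kept its direction and stayed under 0.05 in all 6 alternatives run. It ranged from 1.51 on the log2 scale (without UID-16508) to 2.78 (animals as replicate block without 22.3 mo), with 2.00 when mapped reads were joined by animal number at 22.3 mo, and the last 2 were chosen after seeing the data. The cause of the changes that follow was not tested unless stated. The 10 most-read loci, chosen over all mouse libraries with the longer-window ones included, were also taken out of the denominator. The share differences, in percentage points, were then -2.21 for testes and livers, -0.433 for ovaries and female brains and -0.464 for ovaries and lungs. They were -0.272 for ovaries and uteri, -0.949 for female brains by age and -0.808 for ovaries by age. Per 10000 L1 reads in place of RPM, the log2 differences were -0.57 for ovaries and brains, 0.56 for ovaries and uteri and -0.0742 for testes of 1.9–3.6 and 22.3 mo. Without the most-read member they were -0.0473 for ovaries and lungs and -0.0595 for testes of 1.9–3.6 and 22.3 mo, and leaving out single testes moved the last one from -0.0932 to 0.162. With the replicate block (organs of the same animal) the share of ovaries and uteri differed by 0.256 points (p = 0.03125, exact), 4 members were called for testes and lungs and 0 for ovaries and uteri, and the block moved no other group comparison across its threshold. Without the filter on low reads, more members were tested. Called were 115 of 905 for testes and livers, 31 of 547 for testes and brains and 23 of 586 for ovaries and brains. For ovaries and lungs 15 of 469 were called, and for ovaries and uteri 4 of 450. At 12.8 mo 177 of 859 were called for testes against livers and 180 of 1083 against brains. Shares over all loci are not given for the alternatives, so these counts cannot be set against a background. DESeq2 called 1 member for ovaries and brains, and it turned the direction of UID-17077 for testes and brains (-1.47) and, at 12.8 mo for testes and livers, of UID-15149 (-1.92), UID-16228 (-0.64) and UID-16181 (-1.74). With single libraries left out the calls ranged from 4 to 12 for testes and brains, 7 to 19 for testes and lungs, 0 to 1 for ovaries by age, and 80 to 137 and 106 to 152 at 12.8 mo for testes against livers and brains. Depth limited the counts of members. Thinned to the smallest number of mapped reads, the median number above 10 reads was 2 in testes, 1 in livers, 0.5 in uteri and 0 in brains, lungs and ovaries, and at 12.8 mo 58 in testes, 39 in brains, 23 in lungs and 18 in livers. With at least 1 read as the limit it was 191 in testes, 76 in ovaries, 66 in brains, 56.5 in uteri, 46 in lungs and 33 in livers, and at 12.8 mo 562 in testes, 307 in brains, 159 in lungs and 74 in livers. Of the alternatives for single members, 810 kept direction and side of the threshold, 33 lost it, 6 gained it and 4 turned.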

Other observations

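Members on the X chromosome numbered 282, the most of any chromosome, and members on the Y chromosome 26, with 4 reads in the male libraries other than 12.8 mo. Only 4 members had windows that overlapped each other.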
